A study of Mus musculus with 9 samples.

Results

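The genes described here encode, in the nucleus, the proteins of the mitochondrial respiratory chain and its ATP synthase. They were taken from the count table by symbol: every protein-coding gene whose symbol starts with Nduf, Uqcr or Atp5 or is Cox followed by a digit, together with Sdha, Sdhb, Sdhc, Sdhd, Cyc1 and Cycs. The rule found 106 of the 29288 genes in the table, 46 in complex I, 4 in complex II, 9 in complex III, 1 for cytochrome c, 28 in complex IV and 18 in complex V. It takes in more than subunits: 82 of the genes encode subunits, electron carriers or proteins bound to them, 17 encode assembly factors that build complexes I and IV without staying in them, and 7 are tissue-restricted isoforms or gene copies of complex IV.

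RNA was sequenced from intestinal epithelial cells (IECs) of the proximal small intestine of female, wild-type C57BL/6J mice. The cells came from a crypt-enriched preparation and were sorted as live EpCAM+ cells without the blood, vessel and red cell markers CD45, CD31 and Ter119. The control group (3 mice) received PBS and was sampled at 18 h, the 18h-αGal group (3 mice) was sampled 18 h after 2 µg of αGalCer by intraperitoneal injection, and the 72h-αGal group (3 mice) 72 h after the same dose. αGalCer is a glycolipid that CD1d presents to natural killer T (NKT) cells, which activates them; the mice were given no other agent. No PBS group was sampled at 72 h, so the effect of αGalCer at that time and that of the later sampling cannot be told apart.

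Complexes I and II pass electrons from NADH and succinate to ubiquinone, complex III passes them on to cytochrome c, and complex IV hands them to oxygen. Complexes I, III and IV pump protons across the inner mitochondrial membrane, and complex V, the ATP synthase, uses the gradient to make ATP. Most subunits are encoded in the nucleus, and a few core subunits of complexes I, III, IV and V are encoded by the mitochondrial genome. In the intestine, oxidative metabolism is known to differ along the crypt and villus, with stem cells and differentiated enterocytes both relying on mitochondria.

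Libraries held from 8887861 to 32722293 counts, with the smallest total in control replicate 3, and 101 of the 106 genes passed the filter on low counts. The respiratory chain genes took between 0.693% and 1.03% of all counts of a library. The epithelial markers were high in each library, at 4422 to 6318 summed CPM (counts scaled to the library total), whereas the markers of lymphocytes summed to at most 6.30 CPM, those of endothelium to 4.52, those of fibroblasts to 3.03 and the erythroid marker to 3.97. Myeloid markers were the most abundant of these lists, at 16.7 to 26.5 CPM in control, 20.6 to 33.8 in 18h-αGal and 31.5 to 42.7 in 72h-αGal, with 0 of 4 tested called in edgeR, DESeq2 or limma in any comparison and 1 higher at 72 h vs. control by unadjusted p under 0.05. Their part in the results was not tested. In bulk RNA of this kind, fewer cells of a type and less RNA per cell cannot be told apart.

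At 18 h after αGalCer, 7 respiratory chain genes were higher than in control and 0 were lower (edgeR quasi-likelihood test, adjusted p under 0.05 over 18933 genes). They were Cycs, Uqcr10, Ndufaf4, Cox7a2, Ndufb6, Cyc1 and Uqcrb, and 4 of them belong to cytochrome c or complex III. These 7 are 6.93% of the 101 tested, and 3.27% of all genes tested were called higher and 2.69% lower. Of the protein-coding genes tested, the kind that the rule admits, 4.32% were called higher and 3.30% lower. By unadjusted p under 0.05, 31 were higher and 0 were lower; DESeq2 called 7 higher and 0 lower, and limma 6 and 0. The differences were small and mostly to 1 side: 94 of the 101 had a log2 fold change above 0, with a median of 0.27. The median was -0.03 over all genes tested and 0.02 over the protein-coding ones. All 3 replicates of 18h-αGal lay above all 3 controls for 33 of the 101 genes (32.7%), compared with 11.5% of all genes tested.

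Promoter sequences are shown for the genes called at 18 h, because genes of several complexes were higher together at that time, so that the letters bound by known regulators of respiratory genes can be looked for. They are the 250 bases upstream of the annotated start in RefSeq (GRCm38.p6), printed 5′ to 3′ on the strand of the gene, and capitals mark a match to a motif searched on both strands. The lines follow for Cycs, Ndufaf4, Ndufb6, Uqcr10 and Cox7a2, and Cyc1 and Uqcrb are named only.
Cycs, chr6:50566570-50566819, minus strand: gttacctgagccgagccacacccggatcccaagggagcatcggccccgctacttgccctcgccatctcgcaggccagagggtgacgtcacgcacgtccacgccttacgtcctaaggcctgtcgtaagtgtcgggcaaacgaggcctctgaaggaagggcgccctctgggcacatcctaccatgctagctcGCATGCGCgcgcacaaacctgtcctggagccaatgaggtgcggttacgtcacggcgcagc
Ndufaf4, chr4:24897833-24898082, plus strand: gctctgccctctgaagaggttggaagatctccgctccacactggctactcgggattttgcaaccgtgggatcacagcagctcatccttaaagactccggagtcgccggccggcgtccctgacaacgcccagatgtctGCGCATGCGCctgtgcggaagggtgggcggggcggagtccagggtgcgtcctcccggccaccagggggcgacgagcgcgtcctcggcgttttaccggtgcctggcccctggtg
Ndufb6, chr4:40279422-40279671, minus strand: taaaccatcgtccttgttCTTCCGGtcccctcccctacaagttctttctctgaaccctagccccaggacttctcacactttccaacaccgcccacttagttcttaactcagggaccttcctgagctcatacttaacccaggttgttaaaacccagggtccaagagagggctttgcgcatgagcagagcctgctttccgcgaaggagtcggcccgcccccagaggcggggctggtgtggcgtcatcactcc
Uqcr10, chr11:4704345-4704594, minus strand: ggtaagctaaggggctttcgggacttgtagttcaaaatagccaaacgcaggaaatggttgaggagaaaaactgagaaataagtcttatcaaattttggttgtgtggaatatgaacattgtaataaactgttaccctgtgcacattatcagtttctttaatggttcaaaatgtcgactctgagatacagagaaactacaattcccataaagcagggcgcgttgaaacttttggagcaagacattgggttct
Cox7a2, chr9:79759854-79760103, minus strand: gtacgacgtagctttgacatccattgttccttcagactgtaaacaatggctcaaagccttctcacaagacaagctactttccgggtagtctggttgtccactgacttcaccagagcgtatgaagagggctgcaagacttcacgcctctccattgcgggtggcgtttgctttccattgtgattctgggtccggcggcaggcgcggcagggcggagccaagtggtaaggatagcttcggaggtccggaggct

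Letters searched were GCGCATGC for NRF1 and CCGGAAG for ETS factors such as GABPA, both activators of nuclear respiratory genes, and CACGTG for the E-box of MYC. The remainder were AAGGTCA for estrogen-related receptors, AAGATGGC for YY1 and GAAANNGAA for the interferon-stimulated response element. The capitals in Cycs mark NRF1, those in Ndufaf4 mark NRF1 matches on both strands that overlap, and those in Ndufb6 mark an ETS match. Uqcr10 and Cox7a2 held none of the 6 motifs in this window, which says only that these letters are not there.

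RefSeq listed 89 promoters for 83 of the 106 genes. NRF1 letters occurred in 11.2% of these promoters and in 2.93% of all 21262 promoters listed, and ETS letters in 20.2% and 8.98%. The E-box was found in 7.87% and 6.63%, the receptor motif in 5.62% and 3.59%, YY1 in 2.25% and in 318 of the 21262 and the interferon element in 8.99% and 6.83%. The shares are descriptions of the promoters and were not tested, and a match is not evidence that the factor was bound.

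The summed level of the 106 genes was 8498, 7591 and 9390 CPM in control replicates 1 to 3, 9682, 9875 and 10922 CPM in 18h-αGal and 8122, 7684 and 6489 CPM in 72h-αGal. The 18h-αGal libraries all lay above the controls, while the 72h-αGal libraries overlapped the controls, with replicate 3 below all others. The mean ratio of 18h-αGal to control was 1.20 for the whole group, 1.18 for complex I, 1.13 for complex II, 1.26 for complex III, 1.95 for cytochrome c, 1.17 for complex IV and 1.18 for complex V. Sums over genes are dominated by the abundant members, and the plot of sums by complex shows that 18h-αGal and control ranges were apart for complexes I, III and V and for cytochrome c, but overlapped for complexes II and IV.

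**Figure D1:**
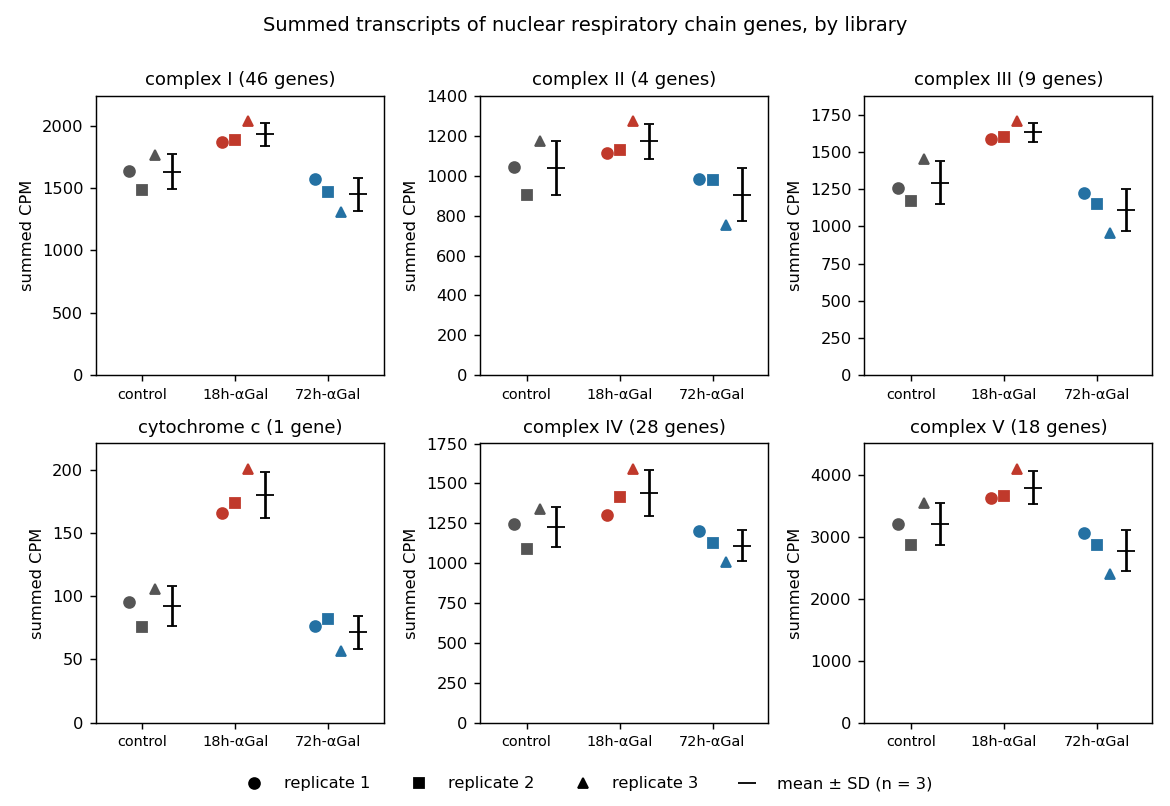
Summed CPM (y axis, from 0) of the respiratory chain genes of each complex in control, 18h-αGal and 72h-αGal IECs (x axis). Symbols are single mice, and the black bar is the mean ± SD of 3 mice. Cytochrome c showed the widest separation, with 165 to 201 CPM in 18h-αGal libraries against 75.3 to 106 CPM in controls.

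Of the 7 genes, that for cytochrome c had the lowest adjusted p at 18 h. Cycs (ENSMUSG00000063694, chr6:50539541-50543557, minus strand, GRCm39) encodes somatic cytochrome c, the soluble protein that shuttles electrons between these complexes and that also activates caspases when it leaves the mitochondrion. Its normalised counts (raw counts divided by 1 size factor per library) were 1848, 1455 and 2075 in control replicates 1 to 3, 3168, 3356 and 3914 in 18h-αGal and 1468, 1573 and 1075 in 72h-αGal. Every 18h-αGal library lay above every other library, and those of 72h-αGal overlapped the controls. The log2 fold change of 18h-αGal vs. control was 0.97 ± 0.16 (SE; edgeR adjusted p = 0.00254). Of its 50-base words, 22.9% also occur in other genes, most of them in the pseudogene Gm10053, whose own count was 1.38% of that of Cycs.

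Cyc1 (ENSMUSG00000022551, chr15:76227204-76230462, plus strand, GRCm39) encodes cytochrome c1, the heme subunit of complex III that donates electrons to cytochrome c. It had 6802, 5880 and 7173 normalised counts in control libraries, 8592, 9092 and 8781 in 18h-αGal and 6254, 5960 and 4900 in 72h-αGal. The 18h-αGal group stood above both others without overlap, at a log2 fold change vs. control of 0.42 ± 0.11 (SE; edgeR adjusted p = 0.0420). Uqcrfs1, the Rieske iron-sulfur subunit, is the other electron-carrying subunit of complex III encoded in the nucleus. Its counts were 2421, 2506 and 3179 in control, 3657, 3408 and 3964 in 18h-αGal and 2792, 2525 and 2016 in 72h-αGal. These groups also did not overlap at 18 h, but the difference of 0.45 ± 0.14 did not pass the test (edgeR adjusted p = 0.0635).

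Among the subunits of complex III without a redox centre, Uqcr10 and Uqcrb were called. Uqcr10 (ENSMUSG00000059534, chr11:4651968-4654653, minus strand, GRCm39), a small membrane subunit, had 857, 888 and 899 normalised counts in control, 1449, 1390 and 1452 in 18h-αGal and 836, 833 and 777 in 72h-αGal. The 18h-αGal libraries differed little among themselves and lay above all others, at a log2 fold change of 0.71 ± 0.12 (edgeR adjusted p = 0.00377). Uqcr10 overlaps Zmat5 and Gm74040 on the other strand and shares 13.4% of its words with other genes. Uqcrb (ENSMUSG00000021520, chr13:67048655-67053443, minus strand, GRCm39), a ubiquinone-binding subunit, had 1422, 1285 and 1714 normalised counts in control, 1806, 2066 and 2381 in 18h-αGal and 1254, 1064 and 1025 in 72h-αGal. The group at 18 h was the highest and the group at 72 h the lowest, with no overlap between any of the 3 groups. Its difference at 18 h was 0.51 ± 0.14 (edgeR adjusted p = 0.0474), close to the threshold. Of its words, 19.2% occur in other genes, mostly in the pseudogene Gm16089, whose own count was small beside it, and it overlaps Ramacl on the other strand. All 9 complex III genes had a positive log2 fold change at 18 h, from 0.11 to 0.71 with a median of 0.39, the highest of the complexes with more than 1 gene.

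**Figure D2:**
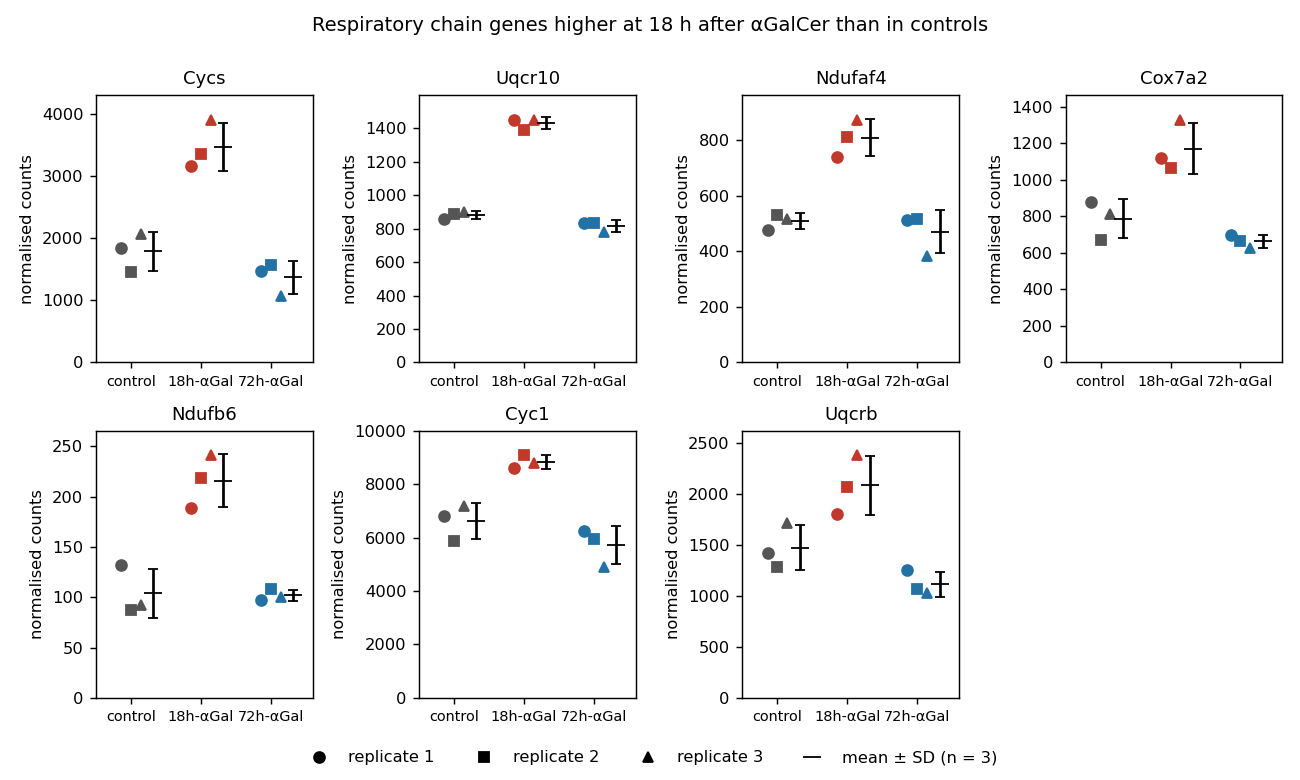
Normalised counts (y axis, from 0) of the 7 respiratory chain genes called higher at 18 h, in control, 18h-αGal and 72h-αGal (x axis). Symbols are single mice, and the black bar is the mean ± SD of 3 mice. In all 7 panels the 3 libraries of 18h-αGal lie above the other 6, as for Ndufaf4 with 740 to 875 against 383 to 532.

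Of complex I, an assembly factor and a subunit were called. Ndufaf4 (ENSMUSG00000028261, chr4:24898079-24905001, plus strand, GRCm39) encodes a factor needed early in building the complex. It had 477, 532 and 518 normalised counts in control, 740, 813 and 875 in 18h-αGal and 514, 517 and 383 in 72h-αGal, a log2 fold change at 18 h of 0.68 ± 0.16 (SE; edgeR adjusted p = 0.0250). The 18h-αGal libraries were the highest 3, and none of its 50-base words occurs in another gene. Ndufb6 (ENSMUSG00000071014, chr4:40270581-40279468, minus strand, GRCm39) encodes a supernumerary subunit of the membrane arm. Its counts were lower, at 132, 87.3 and 92.7 in control, 189, 218 and 242 in 18h-αGal and 97.3, 108 and 100.1 in 72h-αGal. They were again higher in each 18h-αGal library, by 1.05 ± 0.28 on the log2 scale (edgeR adjusted p = 0.0418). Ndufb6 overlaps Smim27 on the other strand.

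The largest log2 fold change of complex I at 18 h belonged to Ndufaf5, which modifies a core subunit during assembly, but it was not called. Its normalised counts were 71.7, 114 and 38.04 in control and 149, 178 and 181 in 18h-αGal, a difference of 1.15 ± 0.39 (edgeR adjusted p = 0.101). All 3 treated libraries were above the controls, which differed widely among themselves. The 8 assembly factors of complex I had a median log2 fold change of 0.70 at 18 h, the 7 core subunits encoded in the nucleus 0.25 and the 30 tested supernumerary subunits 0.27. One factor, Ndufaf1, had a negative value of -0.52 ± 0.32, with 153, 234 and 290 normalised counts in control and 160, 190 and 110 in 18h-αGal, which overlap. Ndufs7, a core subunit holding the last iron-sulfur cluster of the chain within complex I and the complex's highest transcript per length, had 1968, 1955 and 2446 in control and 2067, 1963 and 2359 in 18h-αGal, a difference of 0.01 ± 0.15.

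Complex II, succinate dehydrogenase, is also an enzyme of the tricarboxylic acid cycle and has no subunit encoded by the mitochondrial genome. At 18 h 0 of its 4 genes were called in edgeR, DESeq2 or limma, and 1, Sdhb, had an unadjusted edgeR p under 0.05. Sdhb, the iron-sulfur subunit, had 3858, 3623 and 4736 normalised counts in control, 4874, 4978 and 5338 in 18h-αGal and 3722, 3284 and 2870 in 72h-αGal. Its 18h-αGal libraries lay above the controls, by 0.32 ± 0.12 (edgeR adjusted p = 0.142). The flavoprotein Sdha (0.09 ± 0.14) and the membrane anchors Sdhc (0.06 ± 0.13) and Sdhd (0.27 ± 0.15) overlapped between 18h-αGal and control.

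In complex IV, 1 gene was called at 18 h, Cox7a2, the isoform of subunit 7a found in most tissues. Cox7a2 (ENSMUSG00000032330, chr9:79653049-79667162, minus strand, GRCm39) had 879, 668 and 813 normalised counts in control, 1118, 1062 and 1329 in 18h-αGal and 697, 665 and 626 in 72h-αGal. The 18h-αGal group was the highest without overlap, at a log2 fold change of 0.58 ± 0.15 (edgeR adjusted p = 0.0335). Its paralogue Cox7a2l had 1768, 1757 and 1712 in control and 1317, 1599 and 1606 in 18h-αGal. Cox7a2l was thus lower in each treated library, but the difference of -0.21 ± 0.12 was not called (edgeR adjusted p = 0.347). The other subunit genes found in most tissues had positive values that did not pass the test, such as Cox4i1 (0.29 ± 0.14), Cox5a (0.40 ± 0.19), Cox6a1 (0.14 ± 0.18), Cox6b1 (0.18 ± 0.11), Cox7b (0.43 ± 0.17), Cox8a (0.27 ± 0.15) and Ndufa4 (0.16 ± 0.17), a protein first assigned to complex I and now placed in complex IV.

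Several tissue-restricted isoforms of complex IV were at or near 0. Cox4i2, Cox6a2, Cox8b and Ndufa4l2, known from lung, muscle or hypoxic cells, did not pass the filter, and neither did Ndufb11b, a copy of a complex I gene. Each of these 5 had 0 counts in at least 4 of the 9 libraries and at most 24.1 normalised counts in any. Cox7a1, the muscle isoform of subunit 7a, had 157 to 177 in control, 119 to 155 in 18h-αGal and 100.1 to 158 in 72h-αGal. Cox6b2, known as a testis isoform, had 97.5, 61.7 and 14.3 in control, 34.0, 35.03 and 5.52 in 18h-αGal and 79.9, 48.4 and 70.6 in 72h-αGal. It had the most negative log2 fold change of the group at 18 h, -1.21 ± 0.68, but control and 18h-αGal overlapped and the edgeR adjusted p was 0.335. In control IECs Cox7a2 exceeded Cox7a1 per kilobase of transcript, at 967 against 374 normalised counts per kb.

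Complex V held the most abundant of the nuclear-encoded transcripts of the chain. Atp5f1b, the catalytic β subunit, had 10206 normalised counts per kb in control, more than any other of the 106 genes. Atp5f1a with 7222 and the complex IV subunit Cox8a with 6259 followed. At 18 h 0 of the 18 complex V genes were called in edgeR, DESeq2 or limma, although 17 had a positive log2 fold change and 8 an unadjusted p under 0.05. The largest value was that of Atp5mj, a small membrane subunit, with 907, 809 and 1039 normalised counts in control and 1071, 1252 and 1570 in 18h-αGal. Its groups did not overlap, and its difference was 0.51 ± 0.16 (edgeR adjusted p = 0.0818). Of the 3 genes that encode the identical c-ring subunit, Atp5mc1 (0.45 ± 0.13) and Atp5mc3 (0.35 ± 0.14) were positive and Atp5mc2 (-0.28 ± 0.20) was negative, none of them called. Atp5if1, which blocks ATP hydrolysis by the enzyme, had a value of 0.20 ± 0.14.

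**Figure D3:**
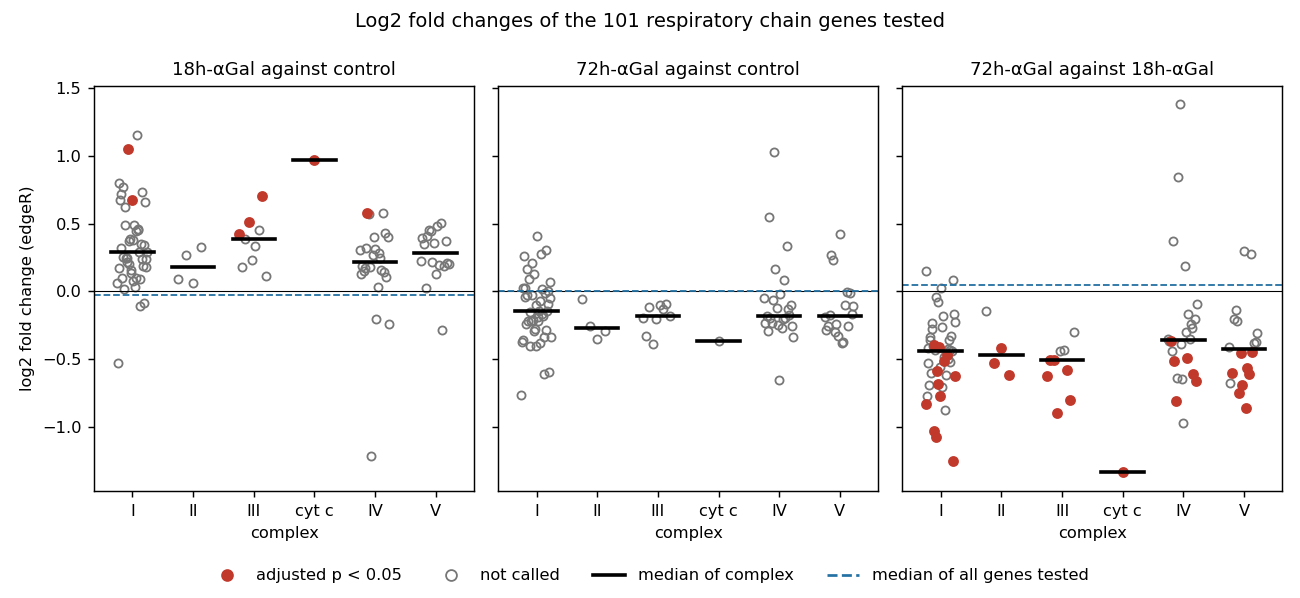
Log2 fold changes (y axis) of the 101 respiratory chain genes tested, by complex (x axis), for the 3 comparisons. Each circle is a gene, filled where the edgeR adjusted p was under 0.05; black lines are medians of a complex, and the dashed line is the median of all genes tested. At 18 h vs. control most circles lie above 0, with 7 filled; at 72 h vs. control 0 are filled; at 72 h vs. 18 h most lie below 0, with 36 filled.

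At 72 h after αGalCer, 0 of the 101 genes were called against control, in either direction, in edgeR, DESeq2 and limma. The lowest edgeR adjusted p of any was 0.810, and 15 had an unadjusted p under 0.05, all of them lower. Only 0.0264% of all genes tested were called in this comparison, so the absence of calls was shared with nearly all genes. Of the 101, 21 were above and 80 below 0, with a median log2 fold change of -0.18, beside 0.00 over all genes tested. Replicate ranges did not overlap for 17 of them (16.8%), all lower at 72 h. Of all genes tested, 6.30% had ranges apart and lower, and 12.7% in either direction. Of the protein-coding ones, 7.22% had ranges apart and lower. Medians by complex were -0.15 for complex I, -0.27 for complex II and -0.18 for each of complexes III, IV and V, and Cycs had -0.37 ± 0.16. The largest negative value of complex I was that of Ndufa1, a small membrane subunit, with 366, 302 and 466 normalised counts in control and 268, 246 and 145 in 72h-αGal (-0.77 ± 0.25).

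The direct comparison of the later with the earlier αGalCer group had the most calls. It shares the 18h-αGal libraries with the first comparison, so the 2 sets of values are not independent. At 72 h, 36 of the 101 genes were lower than at 18 h and 0 were higher (edgeR, adjusted p under 0.05), with 60 lower and 0 higher by unadjusted p under 0.05 and 40 called lower and 0 higher by DESeq2. The 36 are 35.6% of those tested, while 6.04% of all genes tested were called lower and 4.18% higher. Of the protein-coding genes tested, 8.01% were called lower and 4.77% higher. All 3 libraries of 72h-αGal lay below all 3 of 18h-αGal for 65 genes (64.4%). That share was 16.3% of all genes tested and 20.7% of the protein-coding ones. The median log2 fold change was -0.44, beside 0.05 for all genes tested and -0.03 for the protein-coding ones.

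By complex, 12 of 45 tested genes fell in complex I, 3 of 4 in complex II, 6 of 9 in complex III, Cycs, 6 of 24 in complex IV and 8 of 18 in complex V. Most of the calls were subunits: 35 of 81 tested subunits and carriers fell, against 1 of 17 assembly factors, Ndufaf4 (-0.77 ± 0.16, edgeR adjusted p = 0.00849). That difference between the shares was not tested, and assembly factors are also the less abundant transcripts. Cycs had the largest change, -1.34 ± 0.16 (edgeR adjusted p = 0.000182), from a mean of 3479 ± 388 (SD, n = 3) to 1372 ± 263 normalised counts.

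In complex I, the largest called changes from 18 to 72 h were those of the supernumerary subunits Ndufs5, Ndufb6 and Ndufb1. Ndufs5 had 291, 222 and 235 normalised counts at 18 h and 97.3, 124 and 91.25 at 72 h, a change of -1.25 ± 0.28 (edgeR adjusted p = 0.0121). Its control libraries, at 144, 123 and 214, overlapped the later group. Ndufb6 changed by -1.08 ± 0.28 and Ndufb1 by -1.03 ± 0.31, and Ndufb1 shares 30.3% of its words with other genes, mainly with Cpsf2 on the other strand. Cpsf2 had 12240 raw counts over all libraries, against 1111 for Ndufb1. It was itself called higher at 18 h vs. control (0.70, edgeR adjusted p = 0.0140), and its part in the counts of Ndufb1 was not tested. The core subunits Ndufs1, Ndufs3 and Ndufs8 were called too, with changes between -0.59 and -0.40. In complex II, Sdhb fell by 0.61 ± 0.12 on the log2 scale (edgeR adjusted p = 0.00641), Sdhd by 0.53 ± 0.15 and Sdhc by 0.42 ± 0.13, whereas Sdha had -0.15 ± 0.14 and overlapped between the groups.

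In complex III, Uqcrb (-0.89 ± 0.14), Uqcr10 (-0.80 ± 0.12), Cyc1 (-0.62 ± 0.12), Uqcrfs1 (-0.58 ± 0.14), Uqcrc1 and Uqcrq (both -0.50) passed the test. In complex IV the calls were Cox7a2 (-0.81 ± 0.15), Cox5a (-0.66 ± 0.19), Cox7b (-0.61 ± 0.17), Cox5b (-0.51 ± 0.15), Cox4i1 (-0.49 ± 0.14) and Cox6b1 (-0.37 ± 0.11), all subunits found in most tissues. The edgeR adjusted p of Cox6b1, 0.0496, was close to the threshold. Cox7a2l again went the other way, with 1656, 1672 and 1794 normalised counts at 72 h against 1317 to 1606 at 18 h, a difference of 0.19 ± 0.12 that was not called. In complex V, Atp5f1e, the ε subunit of the F1 part of the enzyme, had 616, 775 and 749 at 18 h and 493, 345 and 334 at 72 h. Its change was -0.86 ± 0.20 (edgeR adjusted p = 0.0141). Atp5mc1 (-0.75 ± 0.13), Atp5pb of the peripheral stalk (-0.69 ± 0.12) and Atp5mj (-0.61 ± 0.16) followed, and Atp5f1b changed by -0.46 ± 0.12. Atp5mc1 shares 10.8% of its words with other genes, mainly with Gm10039, whose own count was 32.7% of that of Atp5mc1. Gm10039 was itself called higher at 18 h vs. control (0.87, edgeR adjusted p = 0.00958), and its part in the counts of Atp5mc1 was not tested. The called genes encode parts of the rotor, stalk and head of the enzyme.

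The genes that work around the respiratory chain were counted in lists taken from general knowledge. Of 77 mitochondrial ribosomal proteins, which make the subunits encoded by the mitochondrial genome, 14 rose (18.2%) and 0 fell at 18 h vs. control, with 31 higher and 0 lower by unadjusted p under 0.05, and their median log2 fold change was 0.39. Mrpl20 (1.35 ± 0.27), Mrps11 (1.20 ± 0.32) and Mrpl13 (1.04 ± 0.19) had the largest values, and 20 of the list were lower at 72 h than at 18 h. The 98 tested proteins of the cytosolic ribosome had a median of -0.02, with 2 called higher (2.04%, beside 3.27% of all genes tested), Rps27l (0.84 ± 0.19) and Rpl27 (0.44 ± 0.12). The median of the respiratory chain genes, 0.27, lay between those of the 2 kinds of ribosome.

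Of 46 tested assembly factors with other symbols, 1 rose at 18 h (2.17%, beside 3.27% of all genes tested), Coa5 of complex IV (0.80 ± 0.11, edgeR adjusted p = 0.00106), and 5 fell (10.9%, beside 6.04%) from 18 to 72 h, with Coa5, Hccs and Atpaf2 changing most. Of 18 tricarboxylic acid cycle genes, Idh3a (0.58 ± 0.10) and Cs (0.57 ± 0.14), which encode isocitrate dehydrogenase and citrate synthase subunits, rose at 18 h (11.1% of the list), and 8 fell afterwards (44.4%), led by Mdh2 (-0.95 ± 0.17). Of 20 tested glycolytic genes, Pgk1 (0.78 ± 0.13) and Aldoa (0.67 ± 0.14) rose at 18 h (10%), and 8 fell afterwards (40.0%). Beside these lists, 3.27% of all genes tested and 4.32% of the protein-coding ones rose at 18 h. From 18 to 72 h, 6.04% and 8.01% fell. The glycolytic median was 0.33 at 18 h vs. control and -0.44 from 18 to 72 h, of the same sign as that of the respiratory chain genes in each. Of 22 regulators of mitochondrial gene expression, Perm1 rose (edgeR adjusted p = 0.0187) and Esrrg, an orphan nuclear receptor that drives oxidative genes, fell (-0.96 ± 0.21, edgeR adjusted p = 0.0178) at 18 h, and Esrrg was higher again at 72 h than at 18 h (1.16 ± 0.21). These are 4.55% of the list in each direction at 18 h, near the 3.27% and 2.69% of all genes tested, and 11 regulators were above and 11 below 0, with a median of 0.02.

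**Figure D4:**
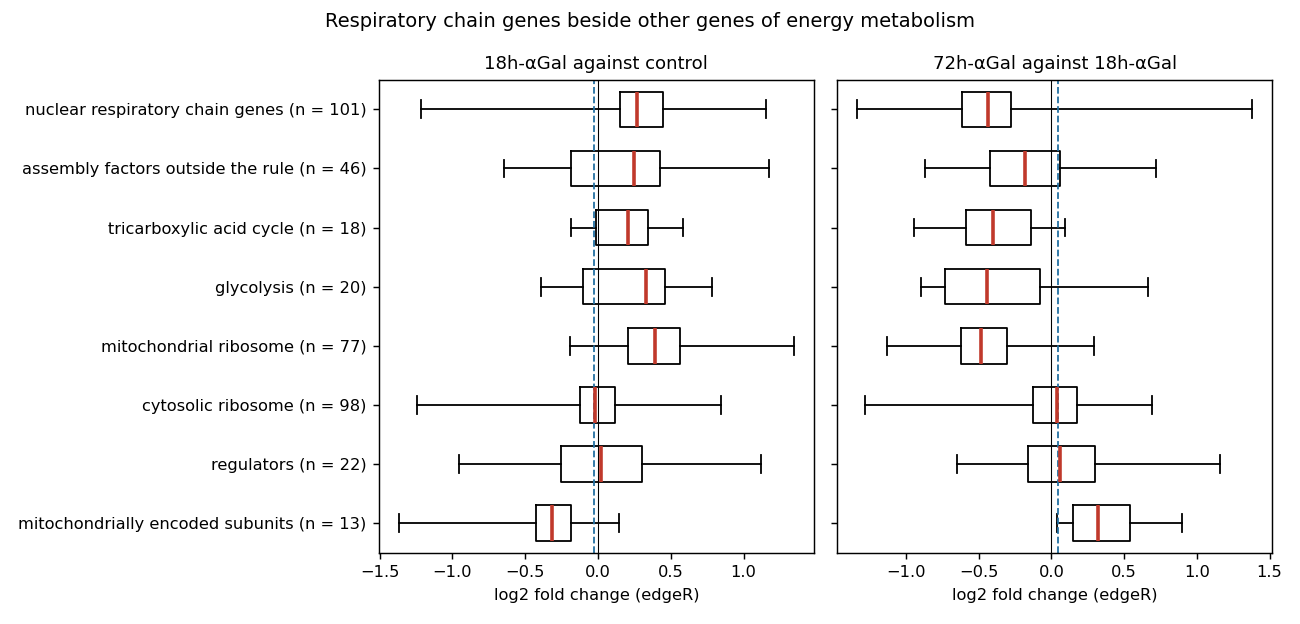
Log2 fold changes (x axis) of the nuclear respiratory chain genes and of 7 related lists (y axis, with the number tested) for 18h-αGal vs. control and 72h-αGal vs. 18h-αGal. Boxes span the quartiles with the median in red, whiskers reach the extremes, and the dashed line is the median of all genes tested. Medians at 18 h run from 0.39 for the mitochondrial ribosome to -0.32 for the mitochondrially encoded subunits.

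Of the 13 subunits encoded by the mitochondrial genome, 10 had a negative and 3 a positive log2 fold change at 18 h vs. control. There 0 were called in edgeR and limma, DESeq2 called 1 lower, 4 were lower and 0 higher by unadjusted p under 0.05, and their median log2 fold change was -0.32. From 18 to 72 h all 13 had positive values, and mt-Nd5 (0.54 ± 0.14, edgeR adjusted p = 0.0234) and mt-Nd6 (0.60 ± 0.16, edgeR adjusted p = 0.0268), both subunits of complex I whose genes adjoin on opposite strands, were called higher. The calls were 15.4% of the list, beside 4.18% of all genes tested and 4.77% of the protein-coding ones called higher. mt-Nd5 had 292199, 216245 and 313072 normalised counts in control, 216164, 178877 and 211358 in 18h-αGal and 272519, 316581 and 287795 in 72h-αGal. Its 18h-αGal libraries were the lowest 3. The 13 genes took 7.94% to 11.6% of the counts of a library, and mt-Co2, mt-Co3 and the mt-Atp genes were far below mt-Co1, for instance 1136 against 740236 normalised counts for mt-Co2 and mt-Co1 in control replicate 1. Whether their reads were lost in counting was not tested, so these low counts are not read as low expression. In the counts of signs and the median above, these genes weigh as much as the others.

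Markers of other epithelial states moved between the groups as well. The 13 enterocyte markers summed to 11548, 7619 and 19968 CPM in control, 12728, 10640 and 16824 in 18h-αGal and 7762, 9872 and 4940 in 72h-αGal, with 0 called in any comparison in edgeR and limma, and 1, 2 and 5 lower by unadjusted p under 0.05 at 18 h, at 72 h and from 18 to 72 h. DESeq2 called 1 of them, lower from 18 to 72 h. At 18 h their sums lay within the range of the controls, and the respiratory chain sums lay above it. From 18 to 72 h both sums were lower, and 72h-αGal replicate 3 had the lowest of each. The 7 stem cell markers summed to 2181 to 4287 CPM in control, 602 to 2081 in 18h-αGal and 2852 to 4542 in 72h-αGal. All 7 had a negative log2 fold change at 18 h vs. control and a positive one from 18 to 72 h. At 18 h 0 were called in edgeR and limma, 3 were lower by unadjusted p under 0.05, and DESeq2 called 2 lower; from 18 to 72 h edgeR and limma called 1 higher and DESeq2 4. The 8 proliferation markers summed to 927 to 1446, 1266 to 1765 and 1410 to 1526 CPM in the 3 groups, with 0 called at 18 h in edgeR, 3 higher by unadjusted p under 0.05, and 2 called higher by DESeq2 and 1 by limma. The 6 enteroendocrine markers summed to 336 to 460 CPM in control, 494 to 769 in 18h-αGal and 151 to 222 in 72h-αGal, with 2 called higher at 18 h and 4 lower at 72 h vs. control in edgeR. From 18 to 72 h 4 of them were called lower in edgeR and 5 in DESeq2, and all 6 had ranges apart. Tuft cell markers summed to 115 to 200 CPM in control, 207 to 386 in 18h-αGal and 119 to 193 in 72h-αGal, with 2 of 4 tested called higher at 18 h and 2 lower from 18 to 72 h in edgeR. Goblet cell markers summed to 10651 to 13194, 6242 to 17753 and 10373 to 18994 CPM, with 1 of 6 called higher at 18 h. Paneth cell markers summed to 906 to 3843, 1881 to 3966 and 1409 to 3381 CPM, with 0 of 6 called in edgeR, DESeq2 or limma and 0 by unadjusted p under 0.05 in any comparison. The part of these cell types in the respiratory chain results was not tested.

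**Figure D5:**
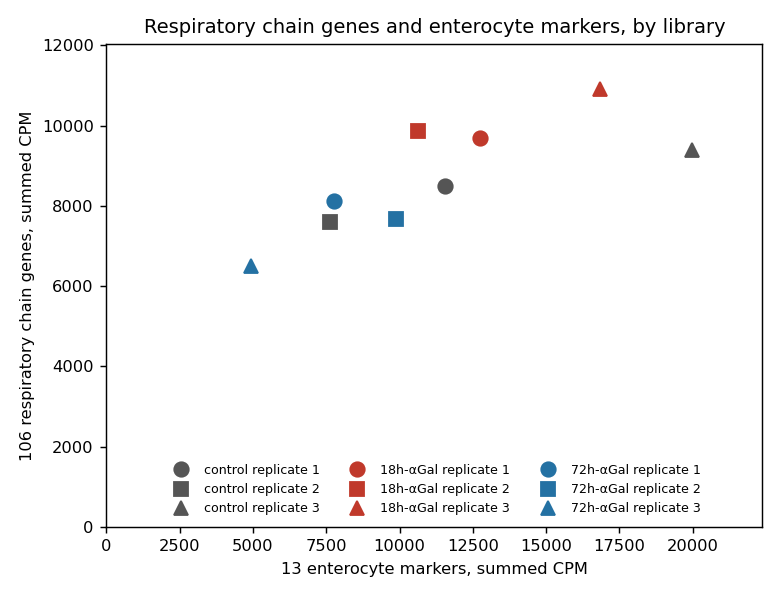
Summed CPM of the 106 respiratory chain genes (y axis, from 0) against summed CPM of 13 enterocyte markers (x axis, from 0). Each symbol is 1 of the 9 libraries, coloured by group. Control replicate 3 had the most enterocyte marker RNA (19968 CPM) and a respiratory chain sum of 9390 CPM, against at least 9682 CPM in 18h-αGal. The 2 sums had the same replicate order within the controls, but not within 18h-αGal or 72h-αGal. Replicate 3 of 72h-αGal had the lowest of each, and the relation was not tested.

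Several calls depended on single libraries. Leaving out control replicate 3, the smallest library, gave 10 calls at 18 h in place of 7, and leaving out 1 of the others gave between 2 and 7. Cycs and Uqcr10 were called at 18 h under each of the 19 alternative settings, at log2 fold changes of 0.84 to 1.07 and 0.64 to 0.73. Of the 5 other calls at 18 h, Ndufaf4 was lost under 5 settings and Cox7a2 under 10. Cyc1 was lost under 12, and Ndufb6 and Uqcrb under 14 each, so these 3 failed in most settings. For the later comparison, the count ranged from 8 without 72h-αGal replicate 3 to 39 without control replicate 3. There Cycs, Uqcr10, Uqcrb, Cyc1, Cox7a2, Sdhb, Atp5mc1 and Atp5pb were called under all 19 alternatives. Cox6b1 was lost under 15 of them, Sdhc and Ndufb1 under 12 each, and Sdhd and Cox4i1 under 9 each. The other calls followed by gene in this comparison were lost under 1 to 8.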

How the data were processed

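RNA of sorted crypt IECs from 9 mice (3 per group) was made into ribosomal RNA-depleted, directional libraries and read at 100 bp. The authors deposited raw read counts per gene and a normalised signal, in which each library's raw counts are scaled by a single factor. Mapping was with HISAT2 and counting with featureCounts. The paper's methods give GRCm39 and the submitters' processing notes GRCm38 (mm10). Strand setting and annotation release are not given in the sources used here, so overlapping or near-identical genes may have exchanged or lost reads. Symbols and gene positions come from GENCODE vM39 (GRCm39), which matched 28480 of 29288 identifiers.

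Raw counts were tested with edgeR 4.0.16 in R 4.3.3 (filterByExpr, trimmed mean of M values, robust quasi-likelihood fit of 3 group means over 9 libraries). Benjamini-Hochberg adjustment covered 18933 genes, with calls under 0.05, and the SE of a log2 fold change is its size over the root of F. Values of 1 gene are the deposited signal (normalised counts), sums as CPM on TMM-scaled totals, and levels between genes per kb of the canonical transcript. DESeq2 1.42.0 and limma 3.58.1 served among 19 alternatives per comparison. The fit was tested on simulated data. Replicates are separate mice. The smallest library allowed a floor of 3 counts, or 0.338 CPM, which covers counting error only.

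The members and lists were chosen with earlier results of these data known. The genes named are, per comparison and complex, up to 3 called in each direction with the largest log2 fold change, the largest change at 18 h and the highest level per kb of each complex, the Sdh genes, Cyc1, Cycs, the isoforms with a special role, and up to 3 called genes per list. Others named (Ndufaf1, Ndufa1, Ndufs1, Ndufs3, Ndufs8, Uqcrc1, Uqcrq, Cox5b, Atp5f1a, Atp5mc2, Atp5mc3) were chosen after their values were seen.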

Additional observations from a re-analysis of the deposited data

Results flagged for a closer look

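For 36 respiratory chain genes the difference from the shared controls was not the same at 18 h and at 72 h, by the edgeR test of 72h-αGal against 18h-αGal. Of those named, the change from 18 to 72 h on the log2 scale was -1.34 for Cycs. In complex I it was -1.25 for Ndufs5, -1.08 for Ndufb6, -1.03 for Ndufb1 and -0.77 for Ndufaf4, and in complex II -0.61 for Sdhb, -0.53 for Sdhd and -0.42 for Sdhc. In complex III it was -0.89 for Uqcrb, -0.80 for Uqcr10, -0.62 for Cyc1 and -0.58 for Uqcrfs1. In complex IV it was -0.81 for Cox7a2, -0.66 for Cox5a, -0.61 for Cox7b, -0.49 for Cox4i1 and -0.37 for Cox6b1. In complex V it was -0.86 for Atp5f1e, -0.75 for Atp5mc1, -0.69 for Atp5pb, -0.61 for Atp5mj and -0.46 for Atp5f1b. With 3 libraries a group, no search for a library that stands apart within its group was made.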

How the results depend on the processing

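The count of respiratory chain genes called at 18 h, 7, was 3 with upper-quartile scaling, 3 with only the groups compared in the fit and 2 with the replicate number as a block. Leaving out 1 library gave 2 to 10: 2 without control replicate 1 or 2 or 18h-αGal replicate 2 or 3, 4 without 18h-αGal replicate 1, and 3 without 72h-αGal replicate 1 or 2. The 36 lower at 72 h than at 18 h became 18 with upper-quartile scaling, 18 with the block and 8 to 39 leaving out 1 library, with 8 without 72h-αGal replicate 3, 15 without 72h-αGal replicate 2 or 18h-αGal replicate 2 or 3, and 23 without control replicate 1, 18h-αGal replicate 1 or 72h-αGal replicate 1. The 0 at 72 h vs. control stayed 0 in all 19 alternatives, the block included. Labels describe no pairing, correlations of same-numbered libraries ranged from -0.28 to 0.22, and 2 of 9 libraries resembled their own number most, so the block is not read as a weaker effect. Medians by complex kept their sign in all alternatives. The complex III median from 18 to 72 h, -0.50, ranged from -0.65 (without 72h-αGal replicate 1) to -0.44 leaving out 1 library. Small uncalled values at 18 h changed sign: leaving out 1 library gave -0.035 (without control replicate 2) to 0.27 for Cox6a1, -0.021 (without control replicate 2) to 0.12 for Sdhc, -0.0022 (without 18h-αGal replicate 3) to 0.28 for Ndufa4 and -0.059 to 0.12 for Ndufs7, which was also -0.047 with upper-quartile scaling and -0.013 with library totals alone. The cause was not tested.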
